A study of Homo sapiens with 4 samples.

Results

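Replication-dependent histone genes were followed on 4 oligonucleotide arrays that set treated against untreated RNA of 2 human colorectal cancer lines. Members were all non-control spots whose platform gene symbol starts with HIST1 to HIST4 or has the newer form of H1-, H2AC, H2BC, H3C or H4C with a number. The rule found 19 of 29640 non-control spots. Of these, 13 carry 1 symbol alone and stand for 13 genes, namely the linker histone genes H1-1, H1-2, H1-4, H1-5, H1-6 and H1-10, the H2B genes H2BC3, H2BC4, H2BC6 and H2BC7, the H3 gene H3C4, and the H4 genes H4C8 and H4C9. The other 6 spots carry several symbols, so no gene is named from them. The choice used names only and no measured value.

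The groups were DLD-1 cells exposed to 5-aza-2'-deoxycytidine, HT-29 cells exposed to it, untreated DLD-1 cells and untreated HT-29 cells. The drug was given at 1 µM for 96 h, after 24 h of growth without it, and is a nucleoside analogue that traps DNA methyltransferases and lowers DNA methylation as cells divide. Treated and untreated RNA of a line shared each array, with treated RNA in Cy5 on array 1 of each line and the dyes exchanged on array 2. No label names separate cultures. The arrays of a line thus count as 1 replicate, and a value per line is a mean ± SD over 2 hybridisations. The p-values rest on a spread between the 2 lines that was shared between spots. In the main fit over all 4 arrays, the 5 tested histone spots had the same SE of 0.221, whatever their own spread. At least 1 channel was above background, taken as more than 2 background SD over the local background, at 22104 and 25825 spots of the DLD-1 arrays and at 25083 and 24619 of the HT-29 arrays. Above background in all 8 channels were 8 of 11 spots for colorectal epithelial markers and 5 of 8 for fibroblast markers. For leukocyte markers it was 1 of 4 and for endothelial ones 0 of 2, against 47.9% of all non-control spots. Fibroblast markers also lay above that share, so these counts do not tell cell types apart.

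The labels put treated RNA in channel 1 on array 2 of a line, and the file headers do not settle whether the file channels keep that order. File channel 2 was read as treated on all 4 arrays, which goes against the labels on array 2. This working reading was chosen after the strongest probes had been seen. Across 18868 spots this reading gave a Pearson r of −0.45 between the DLD-1 arrays, 0.00 between the HT-29 arrays and 0.51 between array 1 of each line. The channel order in the labels turns the sign of each ratio on array 2 of a line and exchanges its 2 intensities. It gave an r of 0.45 between the DLD-1 arrays, −0.00 between the HT-29 arrays and the same 0.51 between array 1 of each line. Values below follow the working reading unless the channel order of the labels is named. The direction of treated over untreated therefore has no settled sign on array 2, while on array 1 both readings give the same one.

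Replication-dependent histone genes supply the linker and core histones that package newly made DNA, and cells transcribe them mainly in S phase. Most of their messages end in a stem-loop that SLBP binds in place of a poly(A) tail, and some of the genes also give polyadenylated messages in differentiated or cancer cells. The genes lie in clusters, the largest of them on the short arm of chromosome 6, where NPAT drives their transcription from histone locus bodies. The amplification kit named in the labels starts from an oligo(dT) primer, which anneals to poly(A) tails. H1-10 fits the rule by its name but is a replication-independent linker histone, and H1-6 is the linker histone of male germ cells.

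RefSeq promoter windows of assembly GRCh38.p14, from 250 bases before to 50 after the transcript start, were matched by symbol for 13 of 13 genes, in 14 windows since H3C4 has 2. Of the 13 genes, 12 lie on chromosome 6, and H1-10 lies on chromosome 3. The motifs were searched on both strands by their letters. The octamer core, which POU factors bind, was searched as TTTGCAT and the box that NF-Y binds as CCAAT. The box that positions the start site was searched as TATAAA, and the AC box of H1 genes, added after the windows had been read, as AAACACA. No matches overlapped. The 160 bases before the start are shown for the 4 H2B genes, which share the octamer core and had array 1 ratios above 0 in both lines, with the matches in capitals.
H2BC3: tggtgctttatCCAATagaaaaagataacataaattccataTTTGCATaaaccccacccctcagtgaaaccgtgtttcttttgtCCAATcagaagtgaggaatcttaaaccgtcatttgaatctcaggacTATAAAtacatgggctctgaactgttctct
H2BC4: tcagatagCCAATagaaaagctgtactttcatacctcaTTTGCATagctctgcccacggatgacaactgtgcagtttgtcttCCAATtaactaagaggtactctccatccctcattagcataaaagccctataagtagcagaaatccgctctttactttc
H2BC6: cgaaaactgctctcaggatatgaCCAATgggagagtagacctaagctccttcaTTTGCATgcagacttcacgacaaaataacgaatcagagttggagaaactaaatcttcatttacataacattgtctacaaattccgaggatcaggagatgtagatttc
H2BC7: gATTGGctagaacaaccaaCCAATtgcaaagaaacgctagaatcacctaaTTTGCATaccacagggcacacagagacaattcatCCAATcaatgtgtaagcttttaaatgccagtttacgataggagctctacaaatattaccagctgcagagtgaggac
These stretches lie at chr6:26043714-26043873 (minus strand), chr6:26123927-26124086 (minus), chr6:26183601-26183760 (plus) and chr6:26199356-26199515 (plus), in the order printed.

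The octamer core TTTGCAT starts 119 bases before the transcript start in H2BC3, 122 in H2BC4, 107 in H2BC6 and 110 in H2BC7. It was found in 4 of 4 H2B windows and in 1 of the 2 H3C4 windows, which overlaps the H2BC7 window by 278 bases, against 4.46% of all 35116 windows of that length. A CCAAT box was found in 12 of the 14 windows, against 34.6% of all windows, and the TATAAA letters in 7 of 14, against 11.5%. On the gene's own strand these letters began 29 to 31 bases before the start in H1-1, H1-4, H1-10 and H2BC3. In H2BC6 they lay 189 bases before it, and in H2BC4 and H3C4 on the other strand. CpG dinucleotides, where mammalian DNA is methylated, numbered 3 to 7 per H2B window, and the median observed over expected CpG ratio was 0.507 for H2B windows, 0.765 for H1 windows and 0.579 for all windows. For comparison, the same stretch is shown for H1-2, the linker histone gene with the largest DLD-1 mean ratio, and for H4C8, the tested spot whose mean ratio was below 0.
H1-2: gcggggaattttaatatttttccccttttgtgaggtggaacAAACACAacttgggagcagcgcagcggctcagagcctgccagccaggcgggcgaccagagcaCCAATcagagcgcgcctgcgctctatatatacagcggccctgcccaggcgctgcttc
H4C8: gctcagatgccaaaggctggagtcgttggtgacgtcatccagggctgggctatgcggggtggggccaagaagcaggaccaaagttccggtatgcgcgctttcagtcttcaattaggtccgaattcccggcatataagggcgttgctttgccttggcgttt
They lie at chr6:26056471-26056630 (minus strand) and chr6:26285535-26285694 (minus). The AC box was found in 5 of 6 H1 windows, missing only from the H1-10 window among them, and in 5.64% of all windows. The H4C8 window held none of the 4 motifs in their exact letters, and near matches were not searched. The motif map sets these positions side by side.

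**Figure D1:**
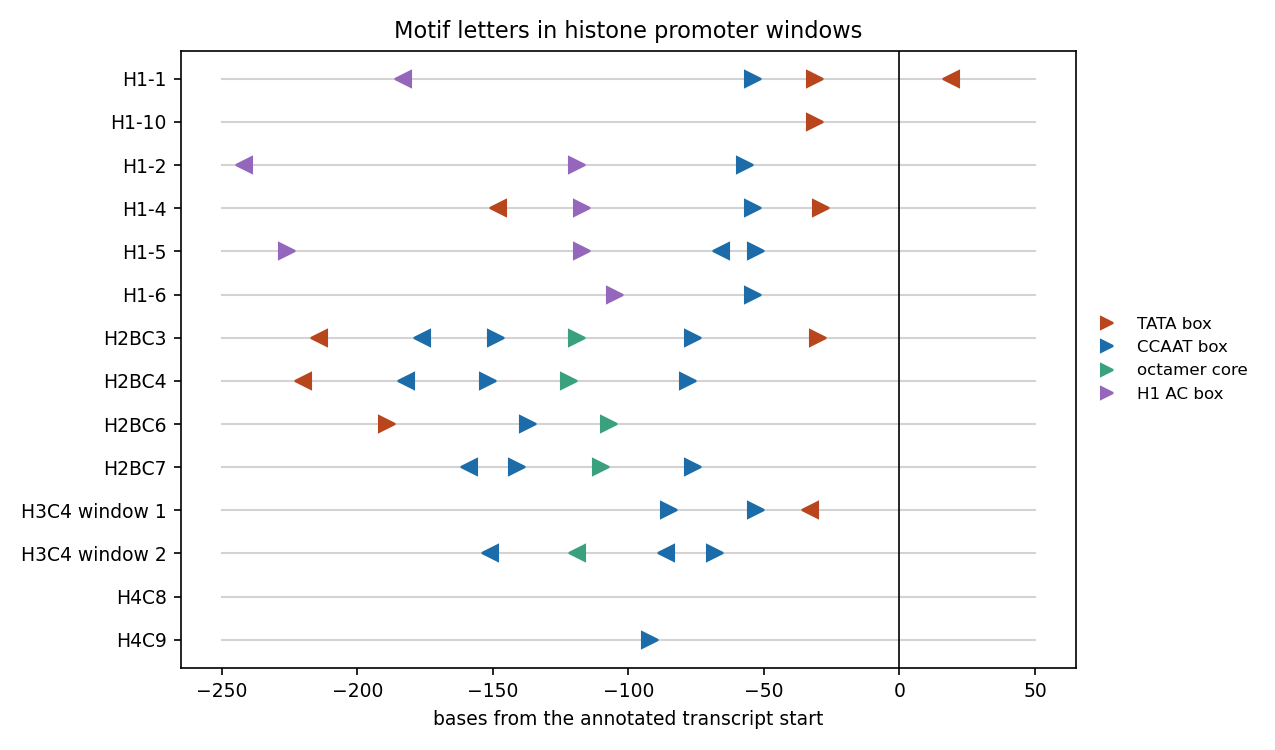
Positions of 4 motifs in the promoter windows of the 13 histone genes, in bases from the annotated transcript start. Triangles point right for the gene's own strand and left for the other strand, and the octamer core appears in 4 of 4 H2B windows between 107 and 122 bases before the start.

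The 4 H2B spots had ratios above 0 on array 1 of each line, where both readings give the same sign and treated RNA is in Cy5. The share of all tested spots above 0 on both of these arrays was not counted. Their ratios correlated at r = 0.51 over all tested spots, so a shared sign there is not particular to H2B. The median log2 ratio of the 4 H2B spots was 0.98 in DLD-1 and 1.09 in HT-29, against −0.01 and 0.05 for all tested spots. On array 2 their medians were 0.27 and 0.69 under the working reading and −0.27 and −0.69 in the channel order of the labels. The 6 H1 spots had medians of −0.10 and −0.09 on array 1 and of 0.61 and −0.05 on array 2. The printed blocks that hold these H1 spots had medians from 0.22 to 0.40 on DLD-1 array 2. Over the 4 arrays 14 of 16 H2B ratios were above 0 under the working reading and 10 of 16 in the channel order of the labels, against 50.6% and 51.4% of the ratios of all tested spots. The H2B and H1 values here take in spots that were not tested, unlike those of all tested spots. Among them is H2BC7, with a log2 ratio of 1.93 on HT-29 array 1 and neither channel above background there. No H2B spot passed the limma test over both lines, which H2BC7 did not enter. H2B genes encode nearly identical core histone proteins, and the probe sequences were not used here, so signal shared between copies cannot be told apart and each symbol names a spot rather than a message of 1 gene.

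H2BC6 was above background in 8 of 8 channels. Its intensity after background subtraction was 4055 and 986 in treated DLD-1 cells on arrays 1 and 2, against 1758 and 879 in untreated DLD-1 cells. In HT-29 it was 2064 and 1696 in treated cells, against 843 and 1230 in untreated cells. Treated signal was the brighter on all 4 arrays under this reading, and on array 1 alone in the channel order of the labels, with array 2 showing the smaller gap in both lines. The log2 ratios after normalisation were 0.85 and 0.39 in DLD-1 and 1.07 and 0.21 in HT-29, so the line means were 0.62 ± 0.33 and 0.64 ± 0.61 (SD, 2 arrays each). The mean over both lines was 0.63, a 1.55-fold ratio, and did not pass the limma test (adjusted p = 0.496). Its SE of 0.221 was the same for all 5 tested histone spots. In the channel order of the labels the array 2 ratios were −0.39 and −0.21, and the mean was 0.33 (adjusted p = 0.657).

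H2BC4, 1 of the genes known to give polyadenylated messages as well, also had a ratio above 0 on all 4 arrays under the working reading. Its intensity was 870 and 694 in treated DLD-1 cells, against 325 and 654 in untreated ones. In HT-29 it was 388 and 1002 in treated cells, against 224 and 291 in untreated cells, the last of these not above background. The treated channel was the brighter on each array, by least on DLD-1 array 2. The log2 ratios were 0.50 and 0.36 in DLD-1 and 0.17 and 1.16 in HT-29, with line means of 0.43 ± 0.10 and 0.66 ± 0.70. The mean of 0.55 did not pass limma (adjusted p = 0.698), and in the channel order of the labels it turned to −0.21 (adjusted p = 0.804).

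H2BC3 differed between the 2 dye orientations in both lines. Its intensity was 3151 and 883 in treated DLD-1 cells, against 879 and 946 in untreated DLD-1 cells. In HT-29 it was 669 and 887 in treated cells, against 132 and 976 in untreated cells, and the 132 was not above background. Treated signal was well above untreated on array 1 of each line and slightly below it on array 2. The log2 ratios were 1.27 and 0.17 in DLD-1 and 1.11 and −0.24 in HT-29. The mean of 0.58 did not pass (adjusted p = 0.635), nor did the mean of 0.61 in the channel order of the labels (adjusted p = 0.300).

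H2BC7 had the largest HT-29 ratios of the 13 spots, and they rest on dim signal. In HT-29 its intensity was 207 and 993 in treated cells, of which the 993 was above background, against 0.001 (the floor of the files) and 89.3 in untreated cells, neither above it. In DLD-1 it was 1698 and 524 in treated cells, both above background, against 419 and 690 in untreated cells, of which the 690 was above it. The HT-29 log2 ratios of 1.93 and 1.85 thus set signal near background against signal at background. Under the working reading, treated over a floor for the untreated side was 1.61-fold in HT-29. This ratio sets the mean of both treated arrays against the lowest signal that counted as above background on each array, or the dim spot's own where higher. Only 1 of the 2 treated arrays was above background, so 1.61 is not a firm lower limit. The same HT-29 ratio was 0.70 for H1-6 and 1.03 for H4C9. With array 2 read in the labels' order, the 993 belongs to untreated cells. The H2BC7 ratio, there untreated over a floor for the treated side, was 0.84. The DLD-1 ratios were 1.12 and −0.00. With 3 of 4 arrays holding a channel above background, H2BC7 did not enter the limma test. Without the filter on dim spots its mean was 1.22 (limma adjusted p = 0.00102), the 1 histone spot that passed there. The SE of 0.249 in that fit was the same for all 13 spots. In the channel order of the labels the H2BC7 line means were 0.56 in DLD-1 and 0.04 in HT-29.

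**Figure D2:**
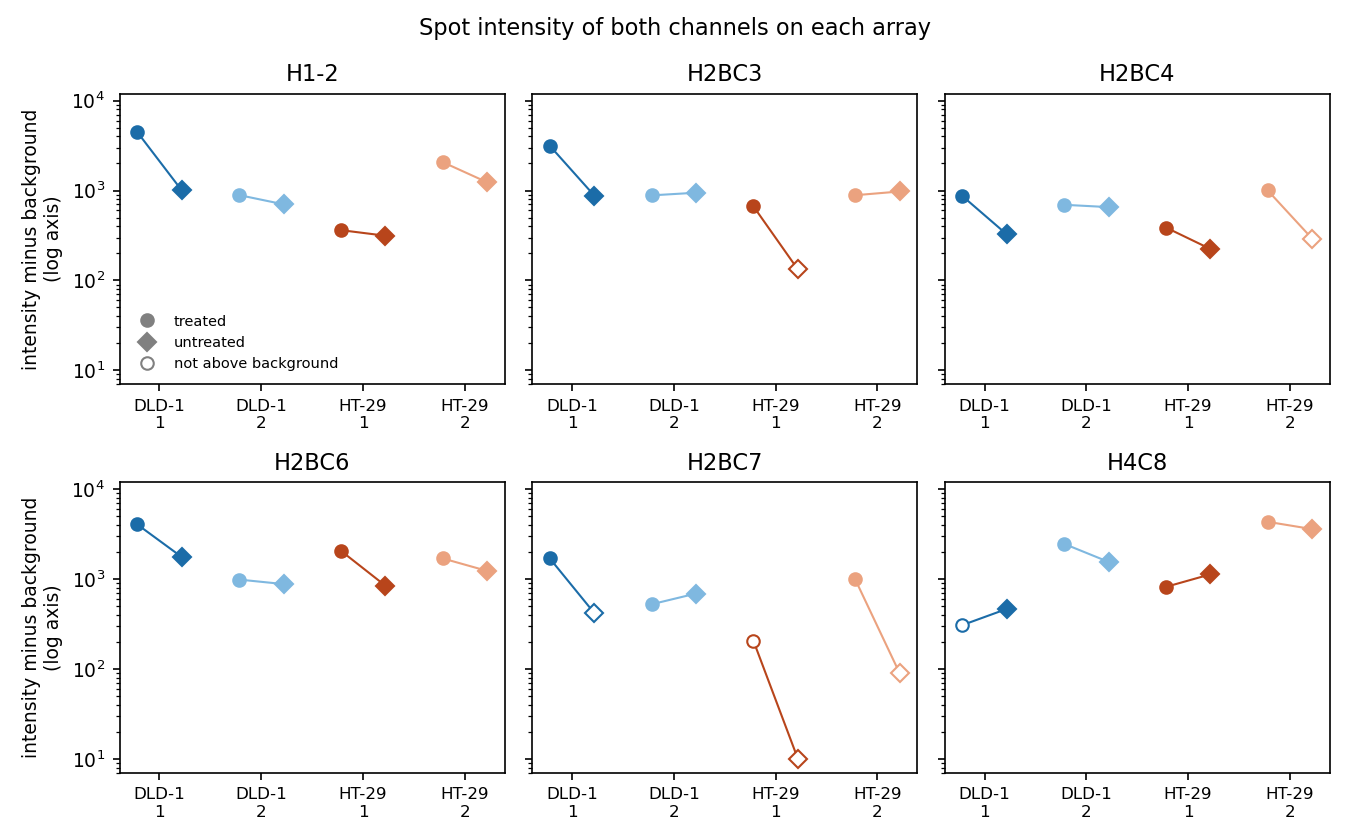
Intensity after background subtraction (log axis) of 6 histone spots on each array, treated (circles) left of untreated (diamonds), with open symbols where a channel was not above background, under the working reading. Values under 10 are drawn at 10, which applies to untreated HT-29 array 1 at H2BC7. H2BC6 had brighter treated signal on all 4 arrays under that reading, and on array 1 of each line alone in the channel order of the labels.

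Linker histones bind the DNA between nucleosomes, and their 6 spots showed no shared direction. Of their 24 ratios, 11 were above 0 under the working reading and 7 in the channel order of the labels. H1-2, a somatic linker histone whose gene also gives polyadenylated messages, was the 1 linker spot that entered the test over both lines. It was above background in 8 of 8 channels, with an intensity of 4479 and 890.0 in treated DLD-1 cells, against 1005 and 702 in untreated DLD-1 cells. In HT-29 it was 363 and 2071 in treated cells, against 314 and 1234 in untreated cells. The treated side was the brighter on each array before normalisation under this reading, and by most on DLD-1 array 1.

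The H1-2 log2 ratios were 1.64 and 0.55 in DLD-1, and −0.18 and 0.45 in HT-29. The line means were 1.10 ± 0.77 and 0.14 ± 0.44, a 2.14-fold and a 1.10-fold ratio, and the difference between the lines was not tested since each line is 1 replicate. The mean over both lines was 0.62 (limma adjusted p = 0.532). In the channel order of the labels it was 0.12 (adjusted p = 0.912).

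The other 5 linker spots had a channel above background on at most 3 of 4 arrays and did not enter the test over both lines. H1-4 had log2 ratios of −0.14 and 0.96 in DLD-1 and −0.02 and −0.11 in HT-29. H1-1 had −0.16 and 0.67 in DLD-1, and −0.16 and −0.17 in HT-29. Both were near 0 on 3 arrays and stood apart on DLD-1 array 2. The printed blocks that hold them had medians of 0.36 (H1-4) and 0.34 (H1-1) on that array. Centred on those medians, the ratios there were 0.60 and 0.34, and H1-4 moved to 0.36 on HT-29 array 1. H1-5 had log2 ratios of 0.19 and 0.37 in DLD-1 and −0.00 and −0.25 in HT-29, with neither channel above background on either DLD-1 array. H1-6, the testis linker histone, was above background in 1 of 8 channels, the treated one of HT-29 array 1, where its intensity was 43.3, against 0.001 in the untreated channel. H1-10 was above background in 0 of 8 channels, so its ratios of −0.30, 0.89, −0.73 and 0.08 compare signal at background.

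The H4 and H3 spots gave no common direction either. H4C8, an H4 gene that also gives polyadenylated messages, had an intensity of 307 and 2462 in treated DLD-1 cells, against 465 and 1550 in untreated DLD-1 cells, with the 307 not above background. In HT-29 it was 818 and 4329 in treated cells, against 1128 and 3590 in untreated cells. Treated signal was the dimmer on array 1 of both lines and the brighter on array 2 of both. The log2 ratios were −0.84 and 0.73 in DLD-1 and −0.51 and −0.00 in HT-29, with a mean of −0.16 (limma adjusted p = 0.963) and of −0.52 in the channel order of the labels (adjusted p = 0.419). The mean turned to 0.24 without DLD-1 array 1.

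H4C9 had log2 ratios of −0.27 and −0.24 in DLD-1, the 1 member with both DLD-1 ratios below 0 and a channel above background on both arrays. In HT-29 its ratios were −0.38 and 0.47, its treated channel was above background on 1 of 2 arrays and its untreated channel on neither. H3C4, which encodes the core histone H3.1, was above background in 0 of 8 channels, and its log2 ratios of −0.36, −0.13, 0.28 and 0.68 have no signal behind them. No spot named by a single symbol stood for an H2A gene.

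**Figure D3:**
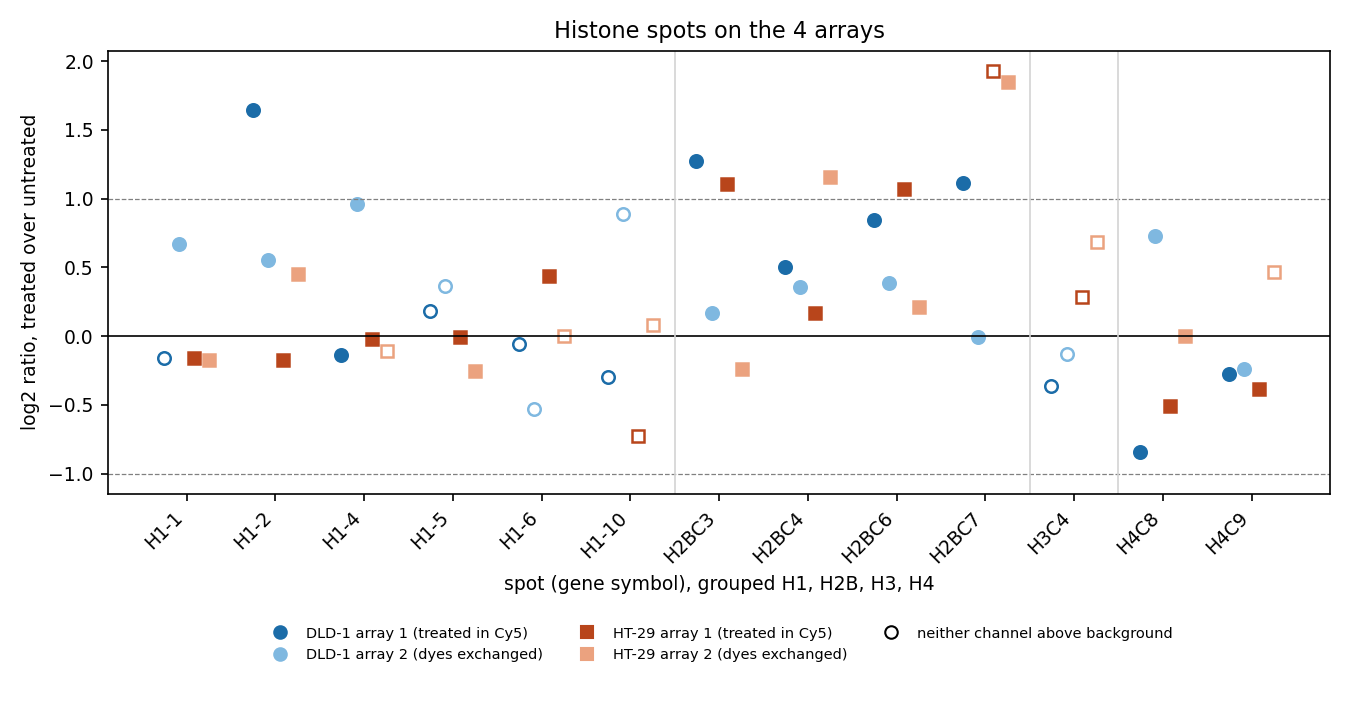
Log2 ratio of treated over untreated signal for the 13 histone spots with 1 symbol, under the working reading, with DLD-1 arrays as circles and HT-29 arrays as squares. Darker symbols are array 1, paler ones array 2, open ones mark arrays where neither channel was above background, and dashed lines mark a 2-fold ratio. Of the 16 H2B ratios, 14 lie above 0.

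Detection set how much of the family could be tested. The 13 spots were above background in 62 of 104 channels, or 59.6%, against 77.2% for all non-control spots. Treated channels reached 34 of 52 (65.4%, against 78.1% for all spots) and untreated channels 28 of 52 (53.8%, against 76.3%). The H2B spots were above background in 15 of 16 treated channels and in 11 of 16 untreated ones, whereas H1 spots were above it in 13 of 24 treated channels and 11 of 24 untreated ones, and H4 spots in 6 of 8 of each. With array 2 read in the labels' order, the H2B counts were 13 of 16 for both, the H1 and H4 counts were as before, and the totals were 32 of 52 treated channels and 30 of 52 untreated ones (80.8% and 73.6% for all spots). The gap at the H2B spots therefore rests on how array 2 is read. Over both lines 5 of 13 spots, or 38.5%, had a channel above background on every array, against 63.7% of all spots. A spot that passed through 1 channel alone was let in by that channel, so counts over those that passed describe them and not all 13. H2BC3 passed through its treated channel alone on HT-29 array 1, and H2BC4 did so on HT-29 array 2. H4C8 passed through its untreated channel alone on DLD-1 array 1.

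Of these 5 spots 0 passed limma in either direction (Benjamini-Hochberg adjusted p under 0.05, two-sided, over 18868 spots), where 0.143% of all tested spots passed upward and 0.0318% downward. In the channel order of the labels 0 of 5 passed as well, against 0.668% upward and 0.0477% downward. The smallest p an exact sign-flip test allows for 2 line means is 0.5, so the limma p rests on a spread shared between spots. Before adjustment 4 of the 5 spots had p under 0.05 in limma, all with means above 0, against 3.44% of tested spots with means above 0. These were H2BC6, H1-2, H2BC3 and H2BC4, whose means ranked 131, 150, 208 and 272 among 18868. H2BC3 and H2BC4 each entered with 1 untreated HT-29 channel not above background, so this count is not independent of the filter. With both channels required above background 2 spots stayed, H1-2 and H2BC6, and 0 passed. With array 2 read in the labels' order, 2 of 5, H2BC3 and H4C8, had p under 0.05, 1 in each direction. Over all tested spots the share was 8.36% with means above 0 and 10.9% in either direction.

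A ratio above 0 on all 4 arrays was seen for 2 of the 5 spots, H2BC4 and H2BC6, against 4.53% of tested spots, and below 0 on all 4 for 0 of 5, against 3.31%. In the channel order of the labels both counts were 0, against 8.65% and 7.28%. The median log2 ratio of the 5 spots was 0.58, against 0.01 for all tested spots, and 0.12 in the channel order of the labels. When each of the printed blocks was centred on its own median, the 5-spot median was 0.53 and the means of H2BC3, H1-2, H2BC6 and H2BC4 were 0.64, 0.66, 0.53 and 0.49. Every one of the 4 leading means is about 1.5-fold, and 1 array moved their calls. Without DLD-1 array 2, limma called H1-2 (adjusted p = 0.00841), H2BC3 (0.0130) and H2BC6 (0.0350), in a fit that called 631 spots upward in all, against 27 with that array.

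Within a line, a spot counted as 2-fold where both arrays gave a log2 ratio of 1 or more, or both gave −1 or less, with no p. In DLD-1 0 of the 8 histone spots measured there met this, against 0.113% of spots upward and 0.00943% downward. In HT-29 0 of 7 met it, against 0.115% upward and 0.0132% downward. With array 2 read in the labels' order, 0 met it in either line, against 0.368% upward and 0.0141% downward in DLD-1, and 0.305% and 0.00442% in HT-29. The median DLD-1 ratio was 0.49, against −0.05 for all spots, and 0.15 in the channel order of the labels. The median HT-29 ratio was 0.14, against 0.00, and 0.01 in that order. Ratios above 0 on both arrays of a line were seen for 4 of 8 spots in DLD-1, against 14.6%, and for 2 of 7 in HT-29, against 27.9%. In the channel order of the labels they were seen for 1 of 8 in DLD-1, against 36.5%, and for 1 of 7 in HT-29, against 23.2%. No member met the rule for a spot switched on, in which the untreated channel is below background on both arrays, the treated channel above it on both and the ratio at least 2-fold (0.0236% of DLD-1 and 0.0177% of HT-29 spots). None met it in the channel order of the labels either (0.0848% and 0.0618%).

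**Figure D4:**
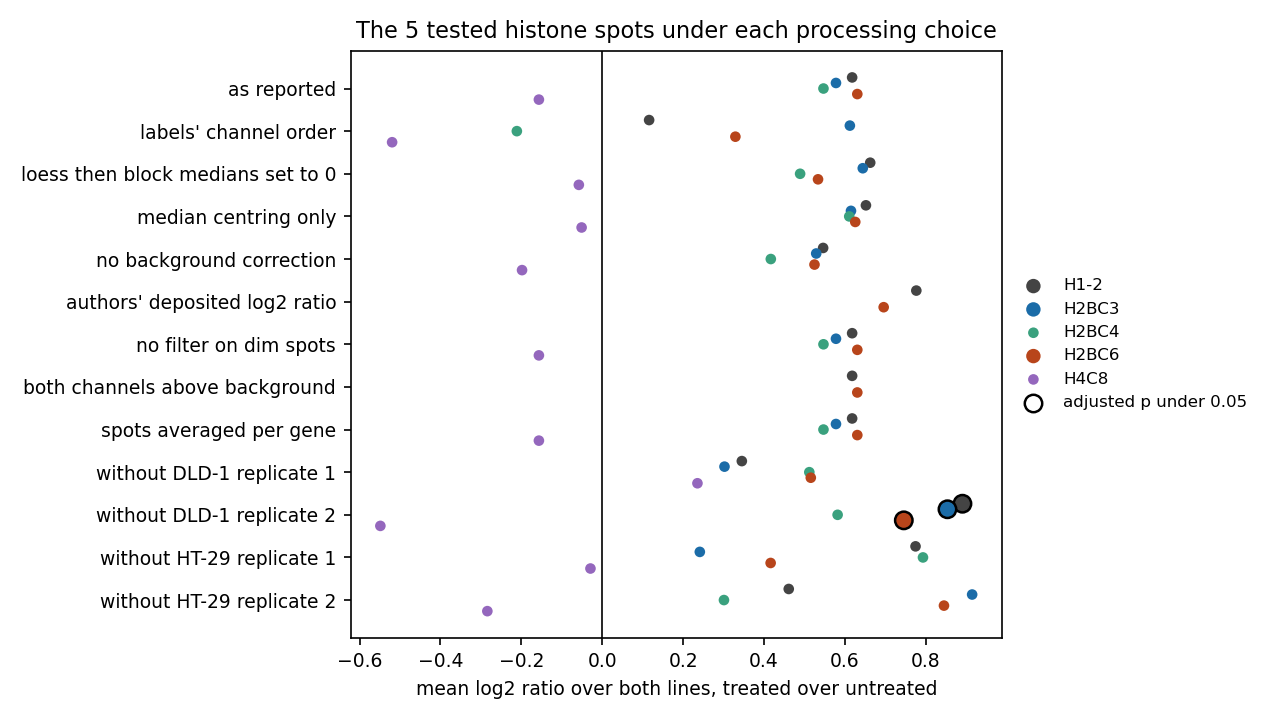
Mean log2 ratio over both lines of the 5 tested histone spots, as reported (top) and under each other processing choice, with black rims where the limma adjusted p is under 0.05. The rims appear only without DLD-1 array 2, and H2BC4 lies at −0.21 in the channel order of the labels.

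The machinery around the histone genes was read from lists of genes. Histones made outside S phase, which replace those lost from chromatin, had 10 spots tested of 14, of which 0 passed limma. Their median was 0.08, and 0.39 in the channel order of the labels. The highest were 2 spots of H3-3A, the gene of the replacement histone H3.3 (0.35 and 0.26), and the lowest were H2AZ1, an H2A variant of promoters (−0.48), and MACROH2A2, a large H2A variant of silent chromatin (−0.24). H3-3A had 5 spots with means from 0.02 to 0.35.

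Genes that transcribe or process histone messages had 16 spots tested of 20, of which 0 passed, with a median of −0.01 under the working reading and −0.03 in that of the labels. The stem-loop binding protein gene SLBP had a mean of −0.13, with log2 ratios of 1.34 and −0.98 on the 2 DLD-1 arrays, and NPAT, the coactivator at histone loci, had 0.04. The extremes were NFYC, a subunit of the factor that binds CCAAT boxes, whose spots ran from −0.29 to 0.30, ERI1, an exonuclease that trims histone messages (0.29), and UPF1, a helicase that acts in their decay (−0.26). Histone chaperones, which carry histones to and from DNA, had 12 spots tested of 18, of which 0 passed, with medians of −0.04 and −0.02. The lowest were CHAF1A and CHAF1B of chromatin assembly factor 1 (−0.43 and −0.32), and the highest NAP1L1 (0.21), which carries H2A and H2B, and RBBP4 (0.20), which binds H4.

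S phase genes had 16 spots tested of 18, of which 0 passed. Their median was −0.24 under the working reading and 0.12 in the channel order of the labels. The working reading put it at −0.21 for DLD-1 and at −0.25 for HT-29. The lowest were MCM6, a subunit of the replicative helicase (−0.71, adjusted p = 0.275), and TYMS, the thymidylate synthase (−0.52), and the highest were CDT1 (0.14), which loads that helicase, and its subunit gene MCM4 (0.12). The sign of this median differs from that of the 5 histone spots under the working reading and not in the channel order of the labels, and any part of S phase content in the histone values was not tested. The 3 tested spots of genes known to give polyadenylated messages, H1-2, H2BC4 and H4C8, had a median of 0.55, and of −0.21 in that order. The plot of these lists sets their spots beside the spread of all tested spots.

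**Figure D5:**
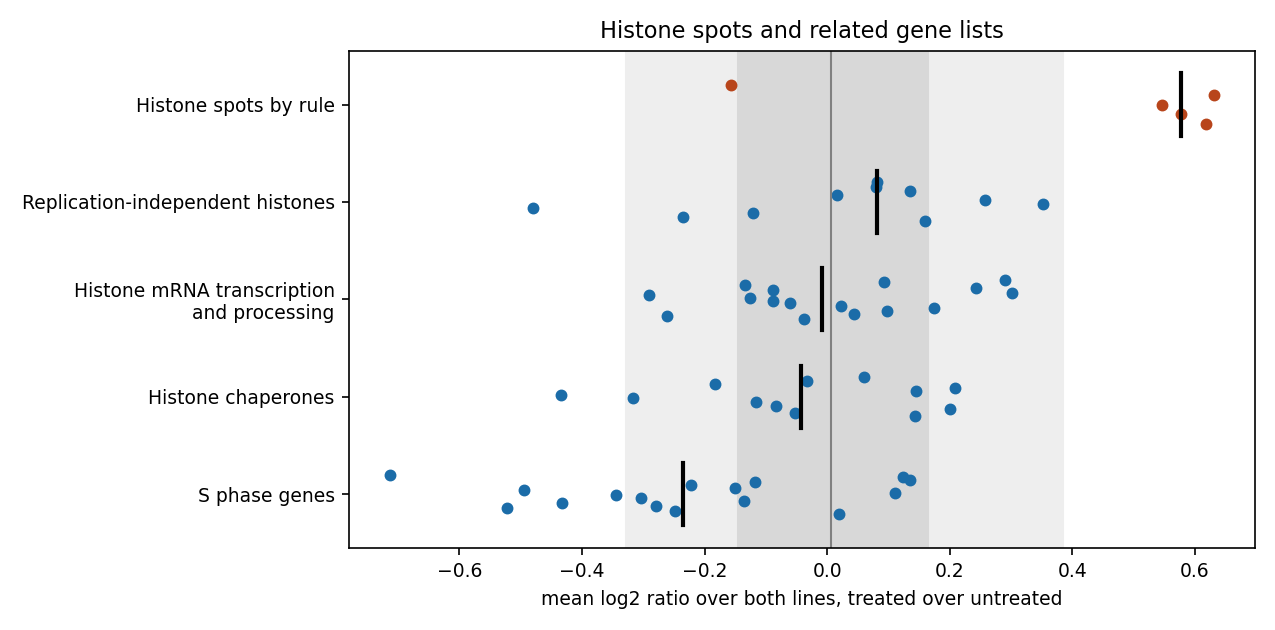
Mean log2 ratio over both lines of each tested spot by list, under the working reading, with black bars at the list medians. Grey bands hold the middle share of all tested spots, dark from the lower to the upper quartile (−0.15 to 0.16) and pale between the quantiles 0.05 and 0.95 (−0.33 to 0.38). Of the histone spots, 4 of 5 lie above the pale band.

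The 6 spots with several symbols are given apart, and 4 of them were tested. Their descriptions in the scanner files name a histone for 4 and another gene for 2. Of the 4 described as histones, the H2B-like spot (h2bfs) had log2 ratios of 0.82 and 0.01 in DLD-1 and 0.52 and −0.29 in HT-29, the same order of arrays as H2BC3, with a mean of 0.26 (limma adjusted p = 0.963). An H2A-family spot (clone ba317e16.2) had −0.65 and 0.69 in DLD-1 and −0.44 and −0.55 in HT-29, with a mean of −0.24. Another (clone dj221c16.4) had 0.86 and −1.25, and 0.02 and 0.70, with a mean of 0.08, and an H4-family spot (dj221c16.9) was not tested. With array 2 read in the labels' order, these 3 means were 0.41, −0.31 and 0.36. With all 19 spots, the median of the 9 tested was 0.26 in place of 0.58.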

How the data were processed

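Values came from 4 scanner files, 1 per array, with 2 hybridisations for each of 2 lines. Per the file headers, the deposited files hold linear spot intensity, local background and its SD for both channels. They also hold the authors' log2 ratio, channel 1 divided by channel 2. RNA was extracted with TriZol, amplified and coupled to Cy3 or Cy5, per the labels' protocols. Which scanner and software were used is not given in the sources used here.

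In R 4.3.3 with limma 3.58.1, intensity was background-corrected with normexp (offset 50) and fitted with 1 loess curve per array, with control and bad spots given no weight. Of 30336 spots in 48 blocks, 29640 were not controls, and 49 of these were marked bad and left out. A spot entered a comparison if every array used had a channel above background. The 2 orientations of a line were averaged, and the line means were tested against 0 with lmFit and eBayes. Each array holds both treated and untreated RNA, and no array of DLD-1 was paired with one of HT-29. The averaging and limma steps were tested on simulated data with independent noise on each array and a known channel order. The measured arrays were correlated and their channel order is not settled, so that test does not bear on either point.

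Platform annotation gave 1 symbol for 14200 spots, several for 447 and none for 14993. Symbols were updated through the human reference table (GRCh38.p14), and promoter windows are RefSeq's. Named were members past a threshold, with 1 sign on all 4 arrays, near background in a line or on the list of polyadenylated messages, and the 2 highest and 2 lowest spots of each other list. The remaining members were added after their values were seen. The members and lists were chosen with earlier results of these data known.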

Additional observations from a re-analysis of the deposited data

How the results depend on the processing

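The number of arrays and signal near background limit these results: 8 of the 13 spots had an array with no channel above background, and each line is 1 replicate. Over all spots limma called 27 upward and 6 downward. The upward count was 126 in the channel order of the labels, 4 with block medians set to 0, 47 with no filter on dim spots, 16 with spots averaged per gene, and 1 to 631 with 1 array left out. The downward count was 0 with block medians set to 0, 2 with the authors' deposited log2 ratio, 2 with both channels required above background, and 0 to 243 with 1 array left out. Histone calls numbered 0 upward, 1 with no filter on dim spots (H2BC7), and 0 to 3 with 1 array left out, the 3 being those without DLD-1 array 2. No setting called a histone spot downward.

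The median over both lines, 0.58, was 0.12 in the channel order of the labels, 0.74 with the authors' deposited log2 ratio (2 spots left), 0.12 with no filter on dim spots, 0.26 with all 19 spots, an alternative chosen after seeing the data, and 0.30 to 0.75 with 1 array left out. The DLD-1 median of 0.49 was 0.15 in the channel order of the labels. The HT-29 median of 0.14 was 0.0083 in that order, 0.36 with block medians set to 0, 0.24 with median centring only, 0.067 with no background correction, 0.054 with the authors' deposited log2 ratio, −0.13 with both channels required, 0.13 with all 19 spots, and −0.012 to 0.14 with 1 array left out. The count of 2-fold spots was 0 in DLD-1. In HT-29 it was 0, and 1 with no filter on dim spots. With 1 array of a line left out, the rule of both arrays cannot be applied to that line, so no count is given. Of 54 alternatives over the 5 tested spots, 52 kept the sign. The exceptions were H2BC4 in the channel order of the labels (−0.21) and H4C8 with 1 array left out (−0.55 to 0.24, above 0 without DLD-1 array 1). The causes were not tested. Every ratio is already a pair of treated and untreated RNA on 1 array. No further replicate block was fitted, since the array numbers mark the dye orientation and no culture shared by the lines.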

Other observations

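Beside the members, 7 spots had no symbol in the platform table but a description in the scanner files as a core or linker histone, and 2 of them were tested. A spot described as H2A family member g had log2 ratios of −0.08 and −0.01 in DLD-1 and −0.59 and −0.02 in HT-29 under the working reading, with a mean of −0.18 (limma adjusted p = 0.963). A spot described as H3 family member d had −0.18 and −0.53 in DLD-1 and −0.21 and −0.18 in HT-29, with a mean of −0.27 (adjusted p = 0.963). Both were below 0 on 4 of 4 arrays, against 3.31% of all tested spots, and neither passed. In the channel order of the labels their means were −0.16 and 0.08. These spots lie outside the rule and their genes are not named here.

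The spots described as H2B did not follow H2BC6 and H2BC4 throughout. The one described as H2B family member a had log2 ratios of −0.31 and −0.18 in DLD-1 and −0.36 and −0.65 in HT-29, and was above background in 6 of 8 channels. The one described as H2B family member g had −0.01 and −0.47 in DLD-1, and 1.17 and 0.62 in HT-29. Its HT-29 intensity was 183 and 977 in treated cells, against 0.001 and 503 in untreated cells. Neither was tested over both lines, since each had an array with no channel above background. Of the 2 H4 spots, family member c had 0.40 and 0.70 in DLD-1 and −0.21 and −0.10 in HT-29, and family member g had −0.22 and −0.31, and 0.05 and −0.27. The spot described as linker histone family member 0, made outside S phase and known for differentiated cells, had −0.86 and 1.34 in DLD-1, and −0.29 and −0.07 in HT-29.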
